A study of Sus scrofa with 10 samples.

Results

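The genes described here are the translation initiation factors (EIF), the elongation factors (EEF) and the aminoacyl-tRNA synthetases, taken by gene symbol: each gene whose single symbol in the array's annotation begins with EIF or EEF, or is a single letter followed by ARS, alone or with a closing 1 or 2. Of 6765 genes named by the array, 60 met this rule, through 90 probe sets, and where a gene had several, the one with the strongest average signal across the 10 arrays stood for it. They comprised 34 initiation factors, 2 regulators of initiation, 6 elongation factors and their partners, 12 cytosolic synthetases and 6 mitochondrial ones. A further 38 symbols of the same kind in the pig gene table, among them EEF2, EIF5, EIF2S3, EIF4EBP1, IARS and QARS, were not analysed here.

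Protein synthesis begins when the eIF2 complex brings the initiator tRNA to the small ribosomal subunit, eIF3 holds that subunit ready, and the eIF4 proteins recruit it to the capped end of an mRNA. Elongation factors then deliver charged tRNAs and move the ribosome along, while the synthetases load each tRNA with its amino acid. Initiation is restrained mainly at eIF2, through eIF2 kinases and the exchange factor eIF2B, and at eIF4E, through the 4E-binding proteins that act downstream of mTOR.

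Fibroblasts came from pig fetuses at day 24, of the cross Danish Landrace/Yorkshire x Duroc, with the head removed, and were cultured on gelatin in serum-containing medium; the series title calls them a cell line. Magnetic beads and an antibody to SSEA-1, a cell-surface carbohydrate, split them into a fraction that bound, the SSEA-1 positive fraction, and one that did not, the SSEA-1 negative fraction. Each of 5 biological replicates gave both fractions, and 1 Affymetrix porcine array was run per fraction, 10 arrays in all. The labels do not say whether replicates came from separate fetuses or cultures, so p-values measure the spread between these samples. The fractions were defined by the sort alone, and no treatment or genotype distinguished them. All values below are the authors' log2 signals, differences are positive minus negative on that scale, and n = 5 arrays in each fraction throughout.

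Array medians lay between 1.15 and 1.19, and 9 of 11 fibroblast markers were measured, all 9 above the background level of 0.352, at a summed log2 level of 12.15 to 12.30 in positive and 12.21 to 12.33 in negative arrays. Among them COL1A2, a collagen chain, rose by 1.19 ± 0.13 (SE, limma adjusted p = 0.000434) and THY1, a surface marker, differed by 0.34 ± 0.10 (SE, limma adjusted p = 0.0564, 0.0146 with the replicate block described below), both without overlap. The others did not share that direction. DCN, LUM, FN1 and S100A4 differed by -0.09, -0.10, -0.13 and -0.09, and COL3A1, VIM and PDGFRB by 0.07, 0.01 and 0.08, none passing. The median over the measured fibroblast markers was 0.01. Of 25 markers of epithelial, endothelial, blood, neural and muscle cells 18 were measured and 8 lay above background on every array, and PTPRC, SPI1, CDH5 and TEK were below it on all 10. The strongest were DES, KRT8 and HBB, markers of muscle, epithelium and blood, with means of 7.06, 5.45 and 4.46 over the arrays. None of the 18 passed in limma, and with the block only KRT19 did, higher by 0.40 (limma adjusted p = 0.0272). Control and cell division values moved with the fractions. The poly-A spike-ins, bacterial transcripts added to the RNA before labelling, read -3.20 ± 0.32 relative to the hybridisation controls in the positive fraction and -4.02 ± 0.25 in the negative one (SD), without overlap (exact two-sided permutation p = 0.00794, the smallest that 5 against 5 arrays allow). The hybridisation controls differed too, at 6.90 ± 0.16 and 6.48 ± 0.16 (SD), also without overlap and at the same exact p. The 4 measured markers of dividing cells differed by a median of -0.77, with CENPF falling by 1.44, and their summed level ran from 6.60 to 7.87 in positive and from 7.24 to 8.79 in negative arrays. All 4 were lower in 5 of 5 pairs, and with the block all 4 passed in limma, against 1 without it. The part of dividing cells in the results below was not tested; fits with the spike-in level as a covariate are given beside them. In sorted bulk RNA, fewer cells of a kind and less RNA per cell cannot be told apart.

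Across the 60 genes the difference between fractions was small. In limma, adjusted over all probe sets at a threshold of 0.05, DARS, EIF4H and EIF2B3 fell and EIF3B and EIF4EBP2 rose in the positive fraction, 5 of 60 genes, while 7.39% of all 6765 genes were called. By direction, 2 rose where 3.21% of all genes did, and 3 fell where 4.18% did. The share called among translation genes, 8.33%, was near that of all genes and is no result about them. The median difference was -0.07 with quartiles of -0.15 and 0.05, against -0.01 with quartiles of -0.12 and 0.10 over all genes, and 52 of the 60 differed by less than 0.25 in either direction. DARS alone passed with a change of at least 1.5-fold, where 1.32% of all genes did. After a repeated quantile normalization and after cyclic loess 38 and 36 of the 60 were lower on average, against 39 as deposited.

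With the replicate number as a block, which the design allows because each replicate gave both fractions, 10 genes were called, where 14.3% of all genes were. By direction 7 were lower, where 8.62% of all genes were, and 3 were higher, where 5.65% were. The 5 added were EIF5B, LARS, NARS and IARS2, which fell, and VARS, which rose. With the spike-in level as a covariate no gene of the 60 passed in limma, where 0.0887% of all genes did. With both the covariate and the block none passed either, where 0.0148% of all genes did. At an unadjusted limma p under 0.05 there were 8 and 2 of the 60 in these fits. The share of all genes at that unadjusted threshold is not given here, so these counts cannot be set against it.

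**Figure D1:**
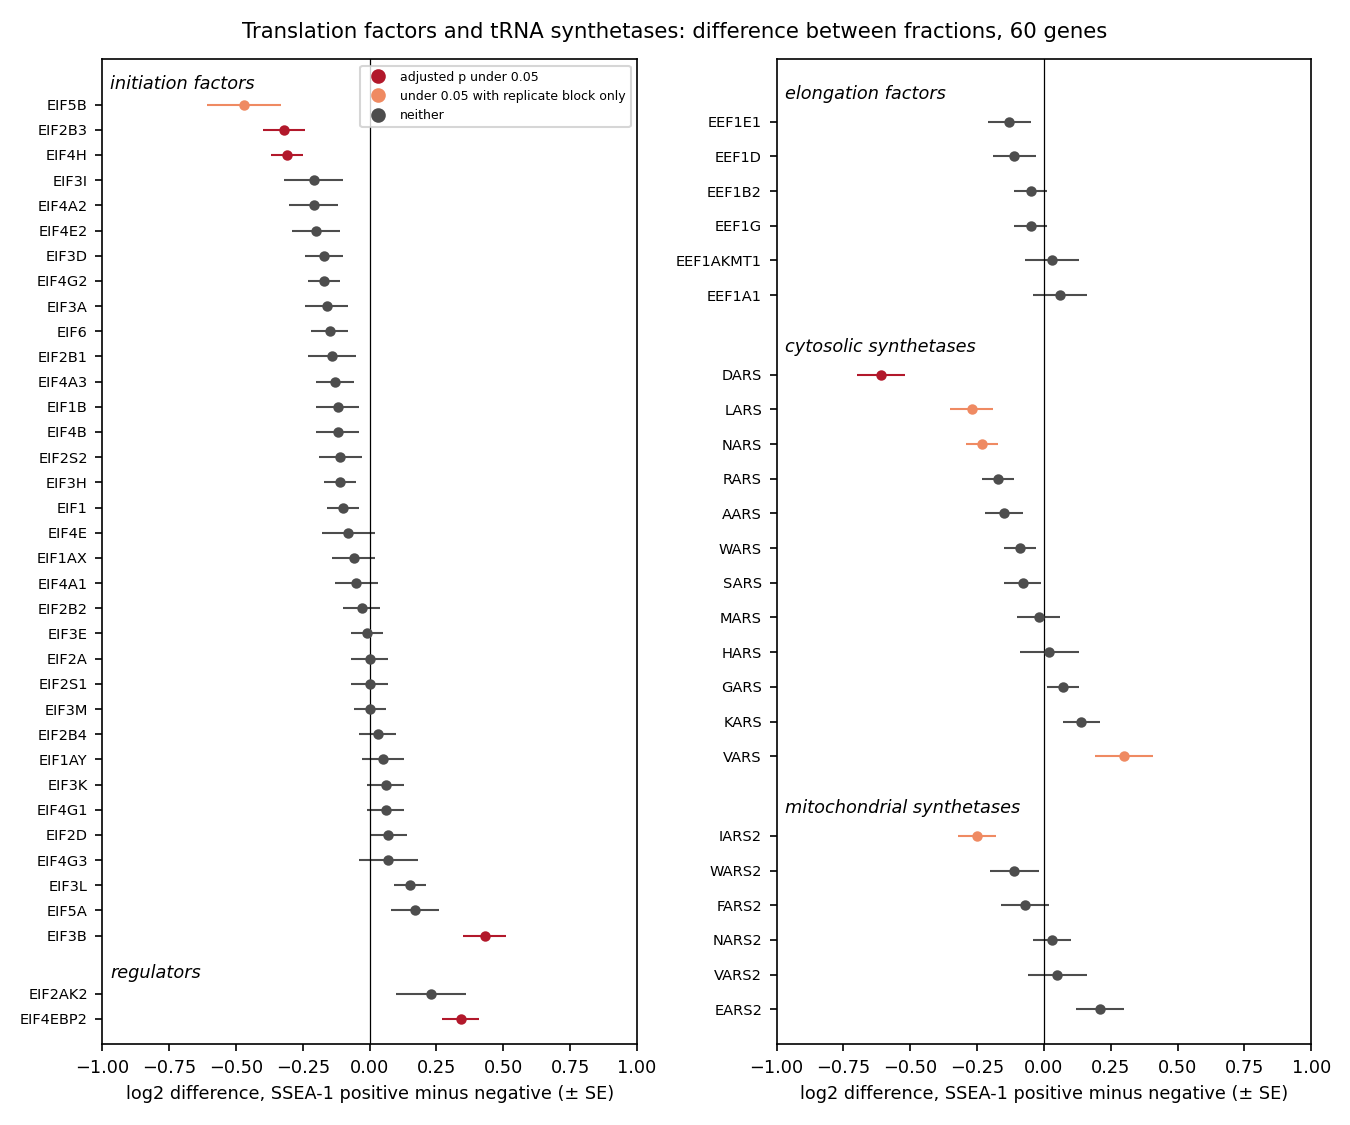
Log2 difference, SSEA-1 positive minus negative, with its standard error, for the 60 genes by class (n = 5 arrays per fraction). Red points passed at an adjusted p under 0.05 in limma, orange points passed with the replicate block only. DARS lies farthest to the left at -0.61 and EIF3B farthest to the right at 0.43, and most genes lie within 0.25 of 0.

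The leading change was in DARS, the synthetase that charges tRNA with aspartate and sits in the multi-synthetase complex. Its signal was 4.58, 4.54, 4.26, 4.68 and 4.34 in the positive fractions of replicates 1 to 5, and 5.12, 4.97, 5.01, 5.14 and 5.22 in the negative fractions. Every positive array lay below every negative one. The mean fell from 5.09 ± 0.10 to 4.48 ± 0.17 (SD), a log2 difference of -0.61 ± 0.09 (SE) or 1.53-fold (limma adjusted p = 0.00207), and the call held without any single array and without both arrays of any replicate. A second DARS probe set went the other way. It read 2.47, 2.65, 3.11, 2.35 and 2.46 in positive and 2.29, 2.43, 2.35, 1.98 and 2.41 in negative arrays, higher in 5 of 5 pairs, with a difference of 0.31 ± 0.13 (SE, limma adjusted p = 0.207, 0.0659 with the block). The direction for DARS therefore rests on 1 of its 2 probe sets, and the mean of both was not called.

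**Figure D2:**
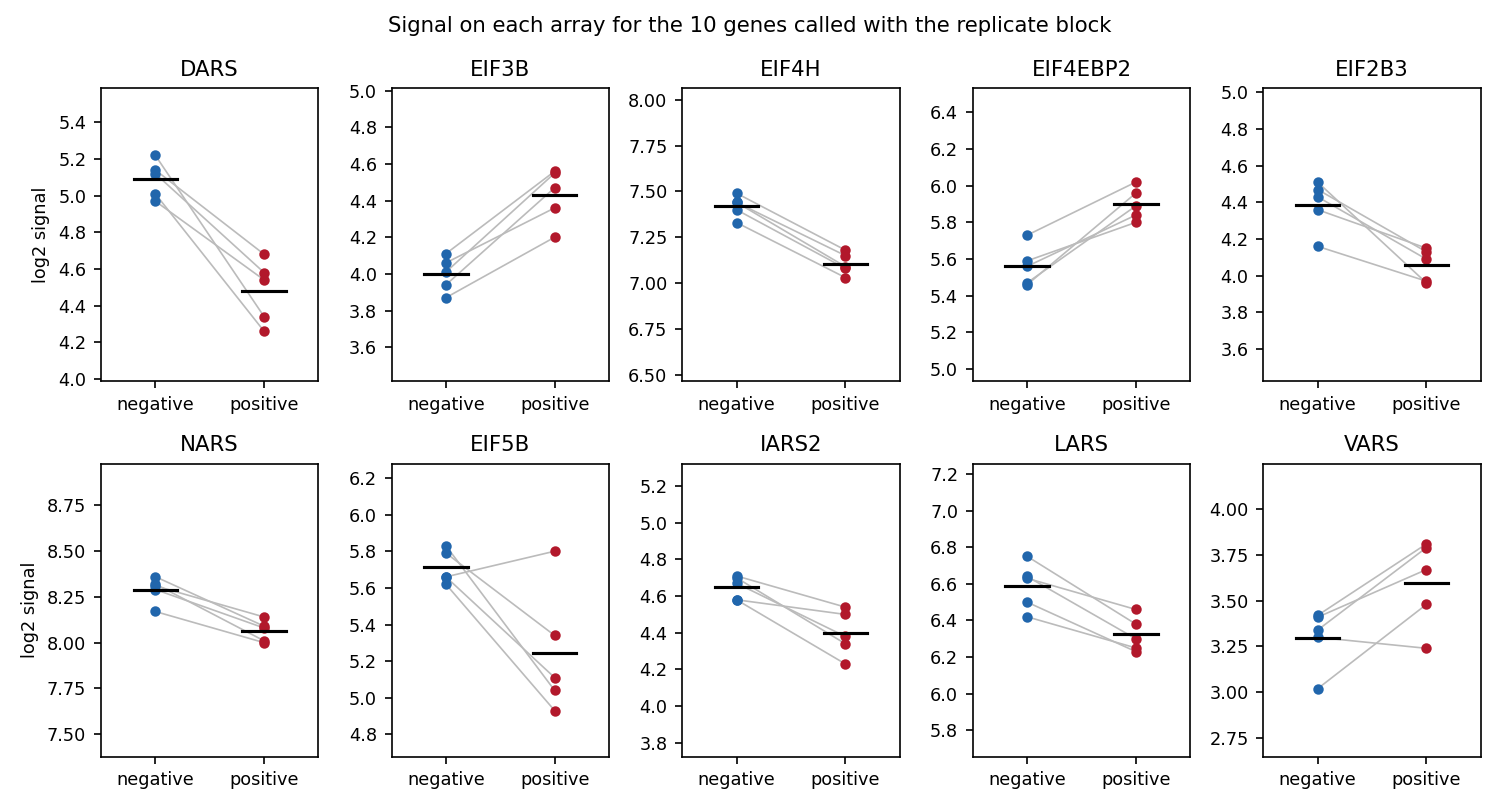
Log2 signal on each array for the 10 genes called with the replicate block, negative fraction in blue and positive in red, with grey lines joining the arrays of a replicate and black bars for the mean (n = 5 each). Each panel spans 1.6 log2 units around its own mean. In DARS, EIF4H and EIF2B3 every positive array is below every negative one, and in EIF3B and EIF4EBP2 every one is above.

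Of the other 11 cytosolic synthetases none passed, although 7 of the 12 were lower in 5 of 5 pairs, against 16.4% of all genes. NARS, which charges asparagine, read 8.01, 8.00, 8.08, 8.14 and 8.09 in positive and 8.32, 8.17, 8.29, 8.31 and 8.36 in negative arrays. The arrays of the fractions did not overlap, and the difference was -0.23 ± 0.06 (SE, limma adjusted p = 0.0520, 0.0447 with the block). LARS, which charges leucine and also senses leucine for mTORC1, differed by -0.27 ± 0.08 (SE, limma adjusted p = 0.0645, 0.0288 with the block). Its positive arrays read 6.38, 6.25, 6.46, 6.23 and 6.30 and its negative arrays 6.75, 6.42, 6.63, 6.50 and 6.64, overlapping slightly.

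RARS, which charges arginine, was 7.81, 7.75, 7.74, 7.82 and 7.78 against 7.94, 7.86, 8.03, 8.03 and 7.88, so that its fractions did not overlap, yet the difference of -0.17 did not pass (limma adjusted p = 0.156). AARS, WARS and SARS, for alanine, tryptophan and serine, differed by -0.15, -0.09 and -0.08 and were each lower in 5 of 5 pairs without passing. MARS and HARS, for methionine and histidine, stood at -0.02 and 0.02.

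VARS, which charges valine, read higher. Its positive arrays were 3.67, 3.48, 3.81, 3.79 and 3.24 and its negative ones 3.41, 3.02, 3.42, 3.34 and 3.30, with replicate 5 the only pair that was lower. The difference of 0.30 ± 0.11 (SE) had a limma adjusted p of 0.157, and 0.0490 with the block. KARS and GARS, whose enzymes serve both the cytosol and the mitochondrion for lysine and glycine, differed by 0.14 and 0.07 without passing. A second GARS probe set, at 7.04 against 6.77, did pass and was higher by 0.27 ± 0.07 (SE, limma adjusted p = 0.0463), with no overlap between fractions, while the remaining one differed by 0.12.

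Among the 6 synthetases of the mitochondrion none passed without the block. IARS2, for isoleucine, read 4.38, 4.23, 4.34, 4.50 and 4.54 in positive and 4.67, 4.58, 4.70, 4.58 and 4.71 in negative arrays, without overlap, and differed by -0.25 ± 0.07 (SE, limma adjusted p = 0.0641, 0.0451 with the block). EARS2, for glutamate, differed by 0.21, WARS2 by -0.11 and FARS2, for phenylalanine, by -0.07. VARS2 lay near background, above it on 9 of 10 arrays, and NARS2 was below it on all 10, so these give no usable difference.

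In eIF2B, the exchange factor that reloads eIF2 with GTP, EIF2B3 fell and the other 3 measured subunits did not pass. EIF2B3, the gamma subunit of its catalytic part, read 3.96, 3.97, 4.09, 4.13 and 4.15 in positive and 4.51, 4.16, 4.43, 4.47 and 4.36 in negative arrays. All 5 positive values lay below the lowest negative one, which came from replicate 2. The difference was -0.32 ± 0.08 (SE), or 1.25-fold, with a limma adjusted p of 0.0304. That call was the least steady of the 5: it ended in 7 of 10 fits that left out 1 array, all but those without negative replicate 2 or positive replicate 4 or 5, with adjusted p-values up to 0.0778. It also ended without both arrays of replicate 1, 3, 4 or 5, at up to 0.158. EIF2B1, EIF2B2 and EIF2B4, the alpha, beta and delta subunits, differed by -0.14, -0.03 and 0.03.

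The substrate of that exchange showed little movement. EIF2S1, the subunit whose phosphorylation blocks exchange, differed by 0.00 ± 0.07 (SE) and EIF2S2, the beta subunit, by -0.11 ± 0.08 (SE), neither passing. EIF2AK2, the double-stranded RNA-activated kinase of EIF2S1 and the one eIF2 kinase measured, read 4.76, 4.73, 4.91, 4.13 and 4.78 in positive and 4.36, 4.37, 4.61, 4.23 and 4.62 in negative arrays. The positive value of replicate 4 stood below all negative values, the other 4 above them. The difference of 0.23 ± 0.13 (SE) did not pass (limma adjusted p = 0.394, 0.12 with the block), whereas it did without positive replicate 4, at an adjusted p of 0.0348 in limma. It did not pass in the other 9 fits that left out 1 array, nor in any of the 5 that left out a pair. Without both arrays of replicate 4 the limma adjusted p was 0.0613.

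EIF5B, the GTPase that joins the large ribosomal subunit at the start codon, had the second largest difference of the 60 and its call depended on the fit. Its positive arrays read 5.04, 5.11, 4.93, 5.80 and 5.34 and its negative arrays 5.83, 5.66, 5.62, 5.66 and 5.79. In 4 pairs the positive array was lower, and in replicate 4 it was slightly higher. The difference was -0.47 ± 0.14 (SE, limma adjusted p = 0.0594, 0.0288 with the block). Without positive replicate 4 it was -0.61 ± 0.09 (SE) and passed (limma adjusted p = 0.00255), as it did without both arrays of replicate 4 (0.00524) and with limma's trend and robust options on all arrays (0.0419). A second EIF5B probe set gave 1.72, 2.05, 2.05, 2.10 and 1.75 against 2.51, 2.53, 2.21, 2.36 and 2.60. There the fractions did not overlap and the fall of -0.51 ± 0.10 (SE) passed (limma adjusted p = 0.0115), while the remaining probe set, near background, differed by -0.06. With the spike-in covariate the first EIF5B probe set gave -0.10 ± 0.23 (SE), and 0.20 ± 0.32 (SE) once the block was added.

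The start codon factors were otherwise close between fractions. EIF1, which guards start codon fidelity, read 9.77, 9.73, 9.78, 9.81 and 9.79 against 9.90, 9.89, 9.89, 9.88 and 9.82, so the fractions did not overlap, but the difference was only -0.10 ± 0.06 (SE, limma adjusted p = 0.393). Its paralogue EIF1B differed by -0.12 and EIF1AX, which opens the scanning ribosome with EIF1, by -0.06. EIF2A and EIF2D, which can bring initiator tRNA without eIF2, differed by 0.00 and 0.07. EIF1AY was below background on all 10 arrays.

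In eIF3, the scaffold of initiation, 9 of 13 subunits were measured and EIF3B rose while the other 8 did not pass. EIF3B, a core scaffold subunit, read 4.55, 4.20, 4.56, 4.36 and 4.47 in positive and 4.01, 3.87, 4.11, 4.06 and 3.94 in negative arrays. Each positive array exceeded each negative one. The difference was 0.43 ± 0.08 (SE), or 1.35-fold, with a limma adjusted p of 0.0105. The call ended without both arrays of replicate 1 and without both of replicate 5, at adjusted p-values up to 0.0776, and the difference was 0.19 ± 0.14 (SE) with the spike-in covariate.

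EIF3L, a peripheral subunit, was also separated, at 6.78, 6.69, 6.72, 6.82 and 6.75 against 6.67, 6.61, 6.55, 6.64 and 6.53, with a difference of 0.15 that did not pass (limma adjusted p = 0.189). EIF3I, EIF3D, EIF3A and EIF3H stood at -0.21, -0.17, -0.16 and -0.11, and EIF3I, EIF3D and EIF3H were lower in 5 of 5 pairs. EIF3E, EIF3M and EIF3K differed by -0.01, 0.00 and 0.06. The subunits therefore did not share a direction, with 5 of 9 lower on average and a median of -0.01.

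Among the factors of cap binding and mRNA unwinding, EIF4H fell and the other 9 did not pass. EIF4H stimulates the helicase eIF4A. It read 7.18, 7.03, 7.09, 7.15 and 7.08 in positive and 7.49, 7.33, 7.44, 7.44 and 7.40 in negative arrays, with every positive array below every negative one. The difference was -0.31 ± 0.06 (SE), or 1.24-fold (limma adjusted p = 0.0116), and -0.38 ± 0.12 (SE) with the spike-in covariate. The call held without any single array and ended without both arrays of replicate 1, 3 or 5, at adjusted p-values up to 0.0730. A second probe set, not far above background at 0.72 against 0.52, differed by 0.20 without passing, and the mean of both was not called.

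EIF4G2, a relative of eIF4G that lacks the site for eIF4E, was separated but did not pass. Its positive arrays were 9.85, 9.84, 9.88, 9.79 and 9.82, its negative ones 9.92, 10.01, 10.07, 10.04 and 9.99, and its difference -0.17 ± 0.06 (SE, limma adjusted p = 0.131). The helicases EIF4A1 and EIF4A2 differed by -0.05 and -0.21, and EIF4A3, the exon junction helicase, by -0.13. EIF4B, a partner of the helicase, stood at -0.12, the cap-binding protein EIF4E at -0.08 and the repressive cap-binding protein EIF4E2 at -0.20.

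The scaffold EIF4G1 differed by 0.06 and EIF4G3 by 0.07, neither passing. A second EIF4G1 probe set with a weak signal read 1.54, 1.82, 2.00, 1.35 and 1.51 in positive and 0.88, 1.13, 0.74, 1.20 and 1.15 in negative arrays. That probe set was higher by 0.62 ± 0.13 (SE, limma adjusted p = 0.0129), and whether it differed from the first probe set was not tested.

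EIF4EBP2, a binding protein that keeps eIF4E from the scaffold until mTOR phosphorylates it, rose. Its positive arrays read 5.89, 5.80, 6.02, 5.96 and 5.84 and its negative arrays 5.47, 5.59, 5.73, 5.46 and 5.56, without overlap. The difference was 0.34 ± 0.07 (SE), or 1.27-fold, with a limma adjusted p of 0.0175. Of its 4 other probe sets, 1 read 4.84, 4.76, 5.04, 4.89 and 4.85 against 4.28, 4.29, 4.43, 4.24 and 4.15 and rose by 0.60 ± 0.07 (SE, limma adjusted p = 0.000840). Another 2 differed by 0.23 each and were higher in 5 of 5 pairs, passing with the block alone at adjusted p-values of 0.0427 and 0.0458, and the weakest differed by -0.08. The call of EIF4EBP2 ended without both arrays of replicate 1, 4 or 5, at adjusted p-values up to 0.0881, and the mean over its 5 probe sets was not called.

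**Figure D3:**
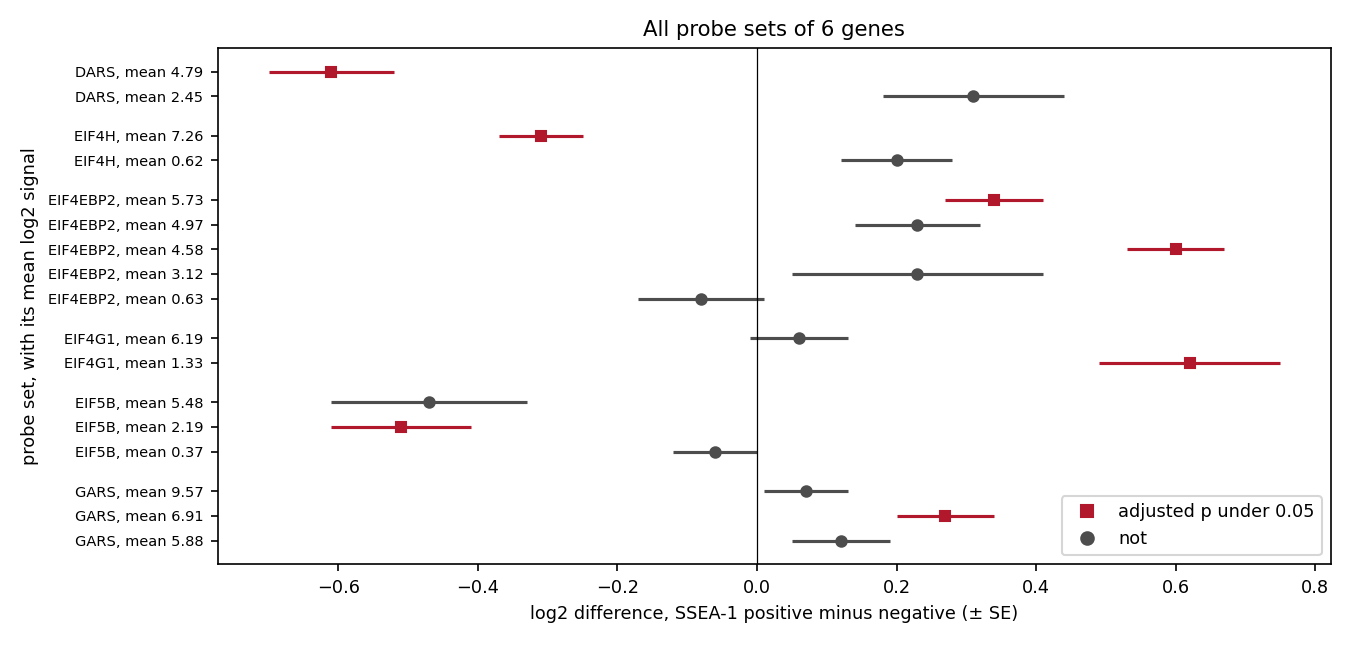
Log2 difference, SSEA-1 positive minus negative, with its standard error, for every probe set of 6 genes, labelled with the probe set's mean log2 signal over the 10 arrays. Red squares passed at an adjusted p under 0.05. The probe sets of DARS and of EIF4H point in opposite directions, whereas 4 of 5 EIF4EBP2 probe sets lie to the right of 0.

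EIF5A, the hypusine-bearing factor that helps ribosomes through difficult sequences, was higher in 5 of 5 pairs at 7.97, 7.68, 7.99, 8.02 and 7.98 against 7.80, 7.52, 7.83, 7.84 and 7.81. Replicate 2 was low in both fractions, and the difference of 0.17 ± 0.09 (SE, limma adjusted p = 0.311) did not pass. EIF6, which keeps the ribosomal subunits apart, differed by -0.15.

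No elongation factor passed in limma in either fit, blocked or not, and none of the 6 had an unadjusted p under 0.05. EEF1B2 and EEF1G, subunits of the exchange complex of eEF1A, differed by -0.05 ± 0.06 and -0.05 ± 0.06 (SE), and EEF1D, another subunit, by -0.11 ± 0.08 (SE). EEF1B2 read 10.30, 10.26, 10.17, 10.21 and 10.22 in positive and 10.30, 10.27, 10.21, 10.32 and 10.32 in negative arrays, so the fractions lay on top of each other. EEF1E1, a scaffold of the multi-synthetase complex despite its name, differed by -0.13, and EEF1AKMT1, a lysine methyltransferase of eEF1A, by 0.03.

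EEF1A1, which delivers charged tRNA to the ribosome, was read by the rule from a probe set at 4.01, 4.12, 4.07, 3.88 and 3.69 against 3.83, 4.01, 3.80, 4.08 and 3.77, a difference of 0.06 ± 0.10 (SE). Its other probe sets, with weaker signals, differed by -0.17 ± 0.11 and 0.00 ± 0.09 (SE) without passing. The array also carries 3 control probe sets labelled ef1a, which the rule leaves out. They read between 10.51 and 11.03 in positive and between 10.72 and 11.14 in negative arrays, and differed by -0.07, -0.11 and -0.17 without passing (limma adjusted p = 0.550, 0.364 and 0.134). In the last 2 of these the fractions did not overlap. Probe sets of paralogues such as EIF4A1 and EIF4A2, EIF1 and EIF1B, or EEF1A1 and its copies may share sequence, so their signals may not be fully separate.

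The 22 genes with several probe sets gave 30 further readings. Of these, 19 pointed the same way as the probe set used and 11 the other way, 5 of these by less than 0.1 and the second DARS probe set by 0.31, and all probe sets of a gene shared a direction in 12 of the 22. Beside the EIF4EBP2, EIF4G1, EIF5B and GARS probe sets given above, none of the further ones passed.

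Pair by pair, the small lowering recurred. Between 36 and 43 of the 60 genes were lower in the positive array of each replicate, with medians of -0.06, -0.04, -0.03, -0.09 and -0.07 for replicates 1 to 5, against 0.00, 0.00, 0.00, -0.05 and -0.01 over all genes. In all 5 pairs 24 genes, 40.0%, were lower and 5 were higher, where 16.4% and 12.5% of all genes were. The 24 held 13 initiation factors, 2 elongation factors and 9 synthetases. The count depended on the scaling: after a repeated quantile normalization it was 22, or 36.7% against 15.4% of all genes, and after cyclic loess 18, or 30.0% against 15.0%. Among genes with a mean above background, as deposited, 41.4% of the translation genes and 18.7% of all genes were lower in 5 of 5 pairs. The median level was 6.64 over the 60 genes and 3.32 over all genes, and the part of signal level was not tested. All these shares are descriptions, since genes measured on the same arrays are not independent. The arrays of the fractions did not overlap for 11 genes, where 8.51% of all genes were so separated. Of the 11, 3 were higher, where 3.96% of all genes were, and 8 lower, where 4.55% were.

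**Figure D4:**
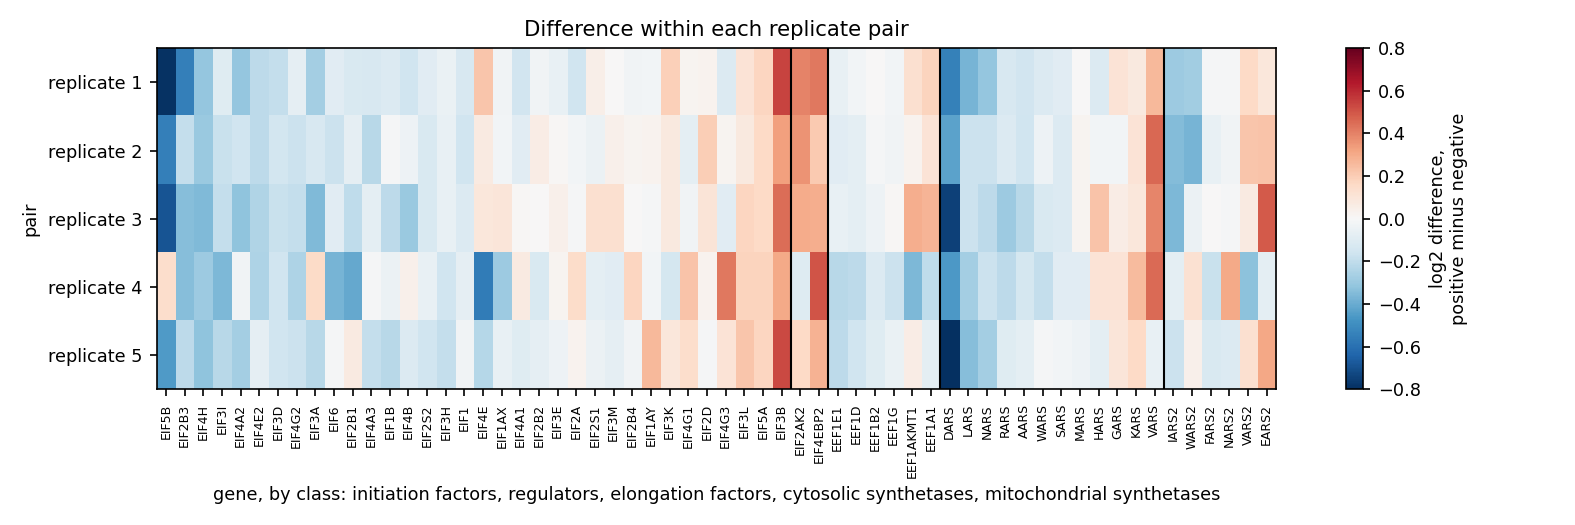
Log2 difference, positive minus negative, within each of the 5 replicate pairs (rows) for the 60 genes (columns), grouped by class with vertical lines and sorted by mean difference within a class. Blue is lower and red higher in the positive fraction, and colours are capped at 0.8. EIF2B3, EIF4H and EIF3I and 7 of the 12 cytosolic synthetases are blue in all rows, EIF5B in all but replicate 4, and EIF3B and EIF4EBP2 are red in all rows.

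**Figure D5:**
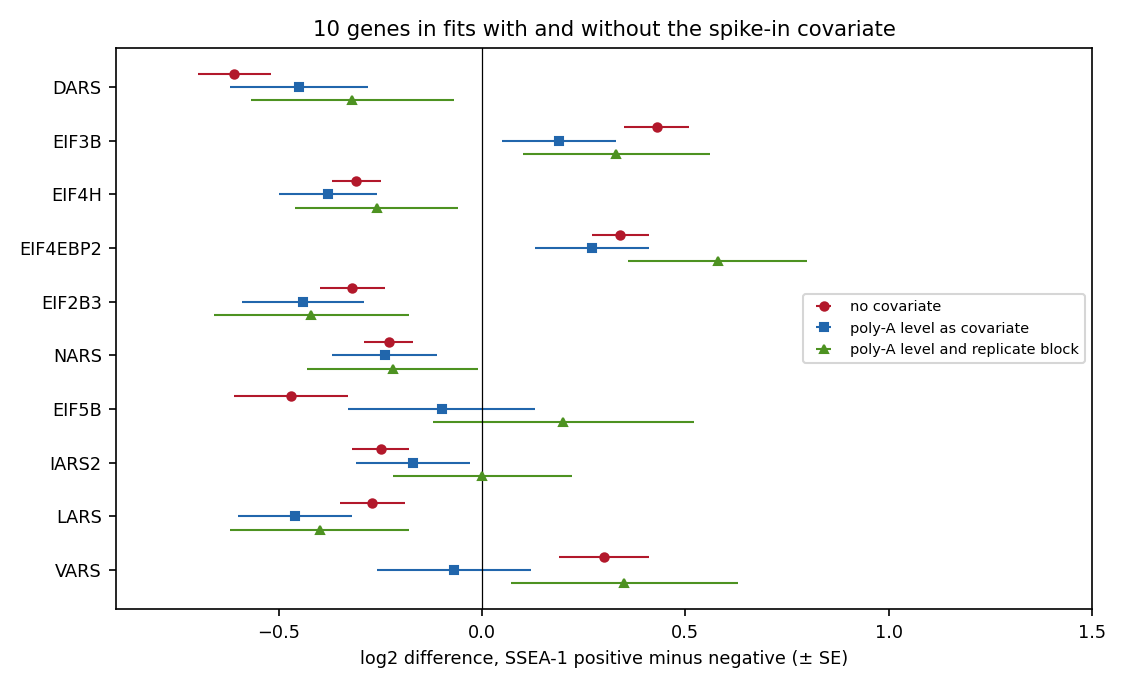
Log2 difference with its standard error for the 10 genes called with the replicate block, in 3 limma fits: without a covariate (red), with the spike-in level as covariate (blue) and with that level and the replicate block (green). EIF5B moves from -0.47 to -0.10 and 0.20, and EIF4H from -0.31 to -0.38 and -0.26, and no gene passed in either fit with the covariate.

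The 10 genes moved differently when the spike-in level was taken into the fit. EIF4H, EIF2B3, LARS and NARS read -0.38, -0.44, -0.46 and -0.24 with the covariate and -0.26, -0.42, -0.40 and -0.22 with the block beside it. DARS read -0.45 ± 0.17 and then -0.32 ± 0.25 (SE), and EIF4EBP2 0.27 ± 0.14 and then 0.58 ± 0.22 (SE). VARS read -0.07 and then 0.35, and IARS2 -0.17 and then 0.00. Since no positive array had a spike-in level as low as any negative one, these values extrapolate between the fractions, and their standard errors are larger.

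Genes that work beside these factors were read from lists of 65 symbols, of which 31 were measured. In limma 2 rose, where 3.21% of all genes did, and 4 fell, where 4.18% did. In the mitochondrial factors, TUFM, the elongation factor that delivers tRNA, rose by 0.37 ± 0.08 (SE, limma adjusted p = 0.0146). GFM1, the translocase, fell by 0.29 ± 0.07 (SE, limma adjusted p = 0.0368), and MTRF1, a release factor, fell by 0.54 ± 0.11 (SE, limma adjusted p = 0.0111), so of 6 measured members 1 rose and 2 fell.

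AKT1S1, an inhibitory partner of mTORC1 also called PRAS40, rose by 0.80 ± 0.09 (SE, limma adjusted p = 0.000446) and was the single call among 5 measured mTOR and MNK genes. DPH5, an enzyme that makes the diphthamide of eEF2, fell by 0.37 ± 0.09 (SE, limma adjusted p = 0.0232) among 7 modifiers. In the stress response list ATF4, which drives synthetase genes when eIF2 is phosphorylated, fell by 0.31 ± 0.08 (SE, limma adjusted p = 0.0395), 1 of 5 measured. None of the 5 synthetase partners and none of the 3 poly(A) and cap partners passed in limma, where 1 and 3 of them had an unadjusted p under 0.05, as 23.8% of all genes did. Once the spike-in level entered the limma fit, all 31 missed the threshold, alone and with the block beside it, while 6 and 5 of them reached an unadjusted p under 0.05. The share of all genes at that unadjusted threshold is not given for these fits. AKT1S1, TUFM and MTRF1 then read 0.53, 0.38 and -0.89 (limma adjusted p = 0.195, 0.334 and 0.0830), and GFM1, DPH5 and ATF4 read -0.24, -0.28 and -0.13 (0.558, 0.543 and 0.792). With the block added AKT1S1, TUFM and MTRF1 read 0.58, 0.52 and -0.93, and GFM1, DPH5 and ATF4 read -0.49, 0.00 and -0.04. The 9 termination and recycling genes of the cytosol on the list were not analysed here.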

How the data were processed

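RNA of 10 sorted fractions was measured on Affymetrix porcine arrays. The authors deposited log2 signals, 1 per probe set. The submitters' processing notes name RMA, without a version. Hybridisation controls, with slopes of 0.942 to 1.05 against log2 concentration, bear on the log base. Values were used as deposited. The background setting is not given, and some signals lay below 0, as for EIF1AY at -0.09 in negative replicate 2. Whether the scale was shifted, which would bear on fold sizes at low signal, was not tested. Names came from the platform annotation: 10069 had 1 symbol and no control prefix, and 198 had several and were not named. By Entrez identifier 59 of the 60 genes matched a RefSeq table of Sscrofa11.1, with no symbol changed.

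All 24123 probe sets were fitted in limma 3.58.1 (R 4.3.3, lmFit and eBayes, Benjamini-Hochberg, threshold 0.05) without the replicate block, and the procedure was tested on simulated data. The simulated arrays had independent noise, without replicate pairs or a spike-in difference between fractions, so that test does not cover these features. The background level is the 95th percentile over 23 controls for absent sequences. Replicate numbers were taken as pairs, since the series text gives both fractions per replicate and deviations of same-numbered arrays correlated at 0.212, 0.580, 0.354, 0.122 and 0.235. Both arrays of replicate 4, and the negative array of replicate 5, correlated more closely with another replicate's array of the other fraction. The rule named genes past the threshold, those without overlap, the 5 largest differences in each direction, the 3 strongest signals of a class and all members of eIF2, eIF2B, eIF4F and eEF1, and related genes only where they passed. The remaining members and the second probe sets were named after their values were seen. The members and lists were chosen with earlier results of these data known. Alternatives covered the block, scaling, filters, thresholds, probe set choice, the spike-in covariate and leaving out arrays. The number of arrays limits the precision.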

Additional observations from a re-analysis of the deposited data

Results flagged for a closer look

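Of 120 groups of 5 arrays, 9 held an array whose gap to its nearest neighbour was too large a share of the group's range by Dixon's criterion at the 95% level, and chance gives about 1 in 20 groups. Of the 9, 5 came from replicate 2. EIF5A read 7.68 in positive replicate 2, where the next value was 7.97, and 7.52 in negative replicate 2, where the next was 7.80. EEF1E1 read 6.20 and WARS2 2.44 in positive replicate 2, with the nearest values at 6.40 and 2.71, and EIF2D read 3.10 in negative replicate 2 with the nearest at 3.28.

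In positive replicate 3, EIF4B was low at 6.97, next to 7.22, and EIF2D was high at 3.40, next to 3.32. EIF2AK2 read 4.13 in positive replicate 4, next to 4.73. EIF1 read 9.82 in negative replicate 5, next to 9.88.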

How the results depend on the processing

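Among the 60 genes, the same 5 were called after median centring, repeated quantile normalization, cyclic loess and without control probe sets. Of these, 2 were higher and 3 lower, and between 7.15% and 7.35% of all genes were called. The filter on level gave 2 higher and 4 lower calls, with 2 synthetases, where 9.40% of the genes kept were called. Lower calls were 7 with the fixed replicate block, the random replicate block, the trend and robust setting and a threshold of 0.1. Synthetase calls were then 5, 4, 3 and 4, against 1. Over all genes, 14.3%, 13.2%, 7.82% and 12.6% were called in these settings, against 7.39%. Of all genes, 583, 522, 305 and 496 were called lower, against 283. The replicate block changed no call beyond the 5 it added. Initiation factor calls were 3, against 4 with the fixed and the random replicate block, at a threshold of 0.1 and over averaged probe sets, and 5 with trend and robust. With the poly-A covariate, alone or with the replicate block, there were 0 higher, 0 lower, 0 initiation factor and 0 synthetase calls in limma, with 8 and 2 genes at an unadjusted p under 0.05, and medians of -0.12 and -0.10 against -0.07. The exact rank-sum test made 0 calls among all genes, with 16 of the 60 at an unadjusted p under 0.05. Its smallest possible p with 5 against 5 arrays is 0.00794, which DARS had, at a rank-sum adjusted p of 0.122. It could therefore make no call here and does not bear on the calls. For the covariate fits and the rank-sum test, the share of all genes at an unadjusted p under 0.05 is not given. At a threshold of 0.01 and with at least 1.5-fold required, 0 were higher, 1 was lower and 0 initiation factors were called. Over all genes 1.76% and 1.32% were then called. Averaging all probe sets of a gene, 5 were called, where 6.46% of all genes were. Of the original calls EIF2B3 and EIF3B stayed, but each has 1 probe set, so averaging could not change their values. DARS, EIF4H and EIF4EBP2, which have several probe sets, were no longer called, at -0.15, -0.06 and 0.26.

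Leaving out 1 array or 1 pair gave 0 to 4 higher and 1 to 5 lower calls, with medians of -0.09 to -0.04. There were 0 to 4 initiation factor calls and 1 to 3 synthetase calls, while 1.70% to 9.80% of all genes were called. With replicate 1 or replicate 5 removed from both fractions, DARS was the single call, where 2.17% and 1.70% of all genes were called. Without positive replicate 4 there were 9 calls, where 8.88% of all genes were called. Without negative replicate 2 there were 7, where 9.80% were. Directions turned for 13 of 60 genes with the poly-A covariate: EIF4A2, to 0.14, VARS, to -0.07, EIF4B, to 0.14, EIF3A, to 0.08, EIF1B, to 0.04, EIF2D, to -0.03, EIF3K, to -0.09, EIF3E, to 0.09, EEF1A1, to -0.13, EEF1AKMT1, to -0.36, HARS, to -0.18, and EIF2A and EIF3M, both near 0 before. With the replicate block beside it 18 turned: EARS2 at -0.37, EIF2AK2 at -0.11, EIF5B at 0.20, EIF4A2 at 0.02, WARS2 at 0.02, IARS2 at 0.00, EIF3A at 0.26, EIF4B at 0.17, EIF1B at 0.03, EIF2D at -0.02, EIF3K at -0.10, EEF1A1 at -0.34, EEF1AKMT1 at -0.54, HARS at -0.12, VARS2 at -0.31, EIF1AY at -0.01, EIF2A and EIF3M. The other scalings turned at most 3, among EIF2A, EIF2S1, EIF3E and EIF3M. The cause was not tested. Signals near background limit VARS2, NARS2 and EIF1AY.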
